A study of Rattus norvegicus with 8 samples.

Results

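Rat liver B cells were selected from droplet-based single-cell data by the pair of genes that encode the signalling chains of the B cell antigen receptor. A barcode was taken as a B cell when it held at least 500 unique molecular identifiers (UMIs, each standing for 1 captured transcript), under 20% of them from mitochondrially encoded genes, at least 1 UMI each of Cd79a and Cd79b, at least 3 UMIs of both together, and no UMI of Cd3d, Cd3e, Cd3g or Siglech, which mark T cells and plasmacytoid dendritic cells. Of 32170 barcodes that passed the UMI and mitochondrial limits, 786 met the rule, and the remaining 31384 are called the other barcodes. They include every other immune cell type as well as B cells that the rule lost. The 4 animals were male Han Wistar rats. NC1 and NC2 received CSAA, an amino acid-defined feed with choline, and PC1 and PC2 received CDAA, its counterpart that lacks choline. The age of the animals is not given in the sources used here. From each animal, liver immune cells were measured fresh and again after cryopreservation in dimethyl sulfoxide (DMSO) and storage for 3 weeks, which gave 8 libraries of 18338700 to 26471843 UMIs. Cryopreserved cells were run later than the fresh ones, and what comes from the later run and what from DMSO cannot be told apart. With 2 animals per diet all tests of diet rest on 2 against 2.

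B cells recognise antigen through a membrane immunoglobulin that is held in a complex with Cd79a and Cd79b. The complement receptor Cr2 lowers the threshold of this receptor, the low-affinity IgE receptor Fcer2 (CD23) is a mark of mature follicular B cells, and Tnfrsf13c (the BAFF receptor) keeps mature B cells alive. B cells also present antigen on MHC class II. Early response genes such as Fos and Jun are transcribed within minutes of almost any stimulus, in B cells as in other cells.

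The promoters of genes that recur below are shown first, because they carry the sequence in which members of each group resemble each other or do not. They are the 250 bases before the start of the gene, 5′ to 3′ on the strand of the gene, from RefSeq on the build GRCr8, and were matched by symbol. The counts themselves were made on Rnor6.0, and no coordinate was carried from one build to the other. For the B cell genes Cd79a (chr1:89621210-89621459 on the plus strand) and Tnfrsf13c (chr7:115618648-115618897 on the minus strand), capitals mark the E box CAGGTG, which is bound by E proteins.
Cd79a: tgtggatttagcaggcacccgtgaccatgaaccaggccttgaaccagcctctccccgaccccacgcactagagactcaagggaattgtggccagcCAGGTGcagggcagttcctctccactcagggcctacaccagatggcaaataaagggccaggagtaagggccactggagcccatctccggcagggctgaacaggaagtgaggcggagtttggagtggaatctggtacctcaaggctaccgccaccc
Tnfrsf13c: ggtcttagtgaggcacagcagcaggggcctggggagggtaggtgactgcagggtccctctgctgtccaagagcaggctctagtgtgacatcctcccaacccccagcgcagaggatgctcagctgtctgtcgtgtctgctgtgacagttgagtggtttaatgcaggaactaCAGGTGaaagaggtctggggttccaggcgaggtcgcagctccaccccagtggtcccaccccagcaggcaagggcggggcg
Both strands of each promoter were searched for CAGGTG, for the octamer ATGCAAAT and for a palindromic motif of the B lineage factor EBF1. Of the 20 genes with the highest ratio of B cells to other barcodes, 10 had a promoter in the table, and 3 of these (Cd79a, Tnfrsf13c and Adgrv1) held CAGGTG, against 15.9% of all 33469 promoters. None of the 10 held the octamer or the EBF1 motif, which 1.56% and 0.738% of all promoters contained.

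For 3 genes that were higher after cryopreservation, Dusp1 (chr10:17184603-17184852 on the plus strand), Ppp1r15a (chr1:105139597-105139846 on the minus strand) and Zfp36 (chr1:92799109-92799358 on the minus strand), capitals mark the cyclic AMP response element TGACGTCA or the CArG box bound by serum response factor.
Dusp1: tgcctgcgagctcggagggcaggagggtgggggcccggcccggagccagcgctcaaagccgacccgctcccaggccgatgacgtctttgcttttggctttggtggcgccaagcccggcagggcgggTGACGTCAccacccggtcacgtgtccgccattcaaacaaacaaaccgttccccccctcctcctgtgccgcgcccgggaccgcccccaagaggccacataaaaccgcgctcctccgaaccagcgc
Ppp1r15a: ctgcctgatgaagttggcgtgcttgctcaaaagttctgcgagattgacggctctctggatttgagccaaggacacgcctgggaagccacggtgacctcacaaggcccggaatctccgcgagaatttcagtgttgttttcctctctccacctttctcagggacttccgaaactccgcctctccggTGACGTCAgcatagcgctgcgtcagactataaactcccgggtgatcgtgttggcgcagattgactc
Zfp36: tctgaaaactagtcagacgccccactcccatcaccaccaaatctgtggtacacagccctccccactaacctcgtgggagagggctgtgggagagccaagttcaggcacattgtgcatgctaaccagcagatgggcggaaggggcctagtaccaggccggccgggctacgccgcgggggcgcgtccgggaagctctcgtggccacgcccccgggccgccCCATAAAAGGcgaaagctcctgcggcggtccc
Of the 10 genes called higher after cryopreservation, 7 had a promoter in the table. TGACGTCA was found in 2 of them, Dusp1 and Ppp1r15a, against 1.59% of all promoters, the CArG box in 1, Zfp36, against 1.497%, and the AP-1 motif TGANTCA in none, against 6.34%. Of the 7 genes called lower, 6 were searched (all but S100a9, which did not change the same way in every animal), and none held any of these 3 motifs. The CArG match of Zfp36 lies 32 to 23 bases before the start. A match of letters is not a measured site, and a window without a match says nothing on binding elsewhere.

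The selected cells carried the B cell programme. As the rule used Cd79a and Cd79b, these genes and all comparisons with the other barcodes are given as a description, without a test. Levels are UMIs of a gene per 1000000 UMIs of the same population in the same library (CPM). Cd79a reached 1203 CPM in B cells, averaged over the 8 libraries, and 56.2 in the other barcodes, and Cd79b reached 1797 and 101 CPM. Among genes that the rule did not use, Fcer2 reached 194 CPM in B cells, 10.1 in the other barcodes and 4.73 in T cells selected by at least 3 Cd3 UMIs, and its ratio lay between 13.8 and 88.2 in the single libraries. Tnfrsf13c stood at 248 against 14.8 CPM. Pou2af1, a coactivator of octamer-binding factors in B cells, stood at 135 against 8.89, and the IgM Fc receptor Fcmr at 688 against 72.7 CPM. The highest single-library ratios came from PC2, where the other barcodes held the lowest level of each of these B cell genes.

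In total, 1470 genes were at 50 CPM or more in the B cells of every library. Of these, 69 were more than 2 times as high as in the other barcodes on average, and 41 in each of the 8 libraries. Behind Cd79a, with a ratio of 21.4 (mean level over mean level), genes with high ratios among these 41 were the adhesion receptor Adgrv1 (19.6), Fcer2 (19.2), LOC501110 and Cd79b (17.9). Further down the 20 leading genes were the elongation factor Ell3, the lymphocyte adaptor Lax1, the B cell scaffold Bank1 and the inhibitory receptor Cd72. The file pairs LOC501110 and LOC499331 with no other name.

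**Figure D1:**
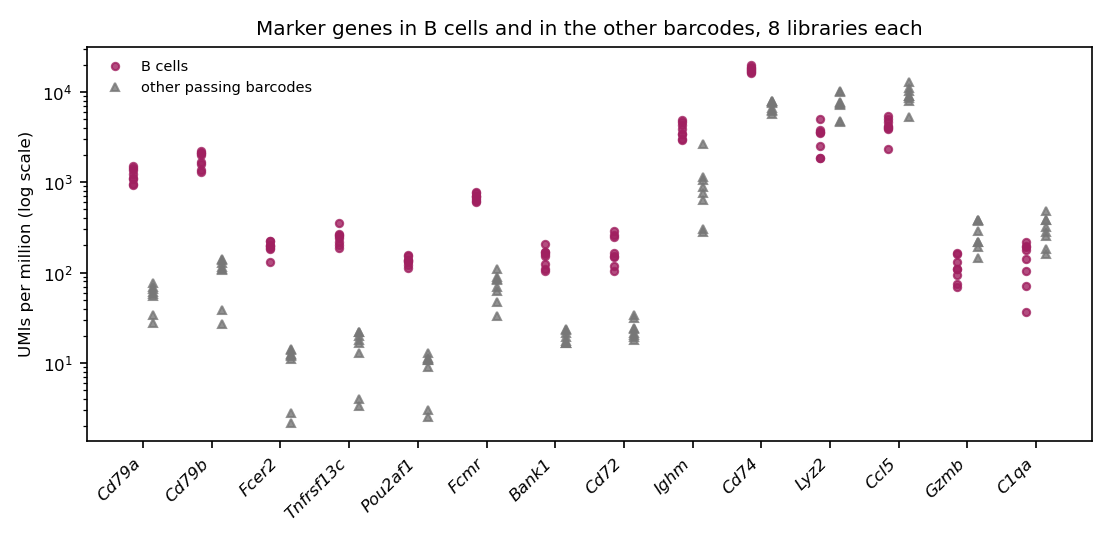
Level of 14 genes, in CPM on a log scale, in B cells (circles) and in the other barcodes (triangles), 1 point per library. B lineage genes from Cd79a to Cd72 lie above the other barcodes in all 8 libraries, whereas Lyz2, Ccl5, Gzmb and C1qa of other lineages are lower but not absent in B cells.

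The stage of the cells was read from marker lists. Summed over the 20 B cell markers in the files that the rule did not use, B cells held 6813 CPM and the other barcodes 1476, with 17 of the 20 higher in B cells. The immunoglobulin heavy chain gene Ighm was the most abundant of them, with 3810 CPM. Ebf1, the factor that specifies the B lineage, reached 82.8 CPM against 3.11, and Cr2, the complement receptor of follicular and marginal zone cells, 67.2 against 3.08. Ms4a1 (CD20) reached 45.8 CPM against 2.85, and Pax5 gave only 12 UMIs in all B cells but stood at 5.50 against 0.172 CPM. Cxcr5 and Vpreb3 gave no UMI. Cxcr5 gave 9 UMIs and Vpreb3 0 in all the other barcodes, so a 0 in B cells does not set them apart at this depth. The 13 plasma cell markers summed to 606 CPM in B cells and 807 in the other barcodes, with Ssr4, which many secretory cells express, the most abundant, Jchain at 9.38 and Tnfrsf17 and Derl3 at 0, of which Derl3 gave 0 UMIs in the other barcodes too. Of the 13, 3 were higher in B cells than in the other barcodes, among them Mzb1, a chaperone of marginal zone and plasma cells, with 59.7 against 13.1 CPM. The lymph node homing receptor Ccr7 gave no UMI in B cells, where the rate of the other barcodes would give 0.661, so no difference was detectable at this depth. The germinal centre, memory and B-1 list was 0.584 times as high as in the other barcodes, with 4 of 23 members higher in B cells.

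Of the MHC class II presentation list, 12 of 20 gene IDs were above the other barcodes. The 18 members that the files contain summed to 31639 CPM in B cells and 13935 in the other barcodes, a ratio of 2.27, and of 1.99 without Cd74, which made up the largest share. The invariant chain Cd74 stood at 17804 against 6982, RT1-Da at 5338 against 2530 and RT1-Ba at 2805 against 1362 CPM, with ratios of 2.55, 2.11 and 2.06. The B cell receptor signalling list without Cd79a and Cd79b, which the rule used, was 1.41 times as high as in the other barcodes. The follicular and marginal zone list was 3.18 times as high, and 1.59 times without Ighm. The list of B lineage transcription factors, led by Mef2c, was 1.43 times as high, with 21 of 25 members above the other barcodes.

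At 1000 UMIs per cell, Fcer2 was seen in 134 of 769 B cells, with 13.3% to 25.0% in the single libraries and a median of 17.2%. In T cells, which should lack it, the median was 0.684%, and in the other barcodes 1.52%. Tnfrsf13c was seen in 164 of 769 B cells, with a median of 21.6%, against 1.06% of T cells. Without thinning, 23.2% to 47.7% of B cells held Fcer2 and 37.0% to 45.1% Tnfrsf13c. Ighm was found in a median of 90.3% of B cells but also in 34.4% of T cells, which is well above the share of Fcer2 in T cells. At this depth the share of B cells with Tnfrsf13c was 17.2% in fresh and 25.6% in DMSO libraries on average, higher by 8.35 ± 4.44 points and in 4 of 4 animals (SD, n = 4, exact permutation test, p = 0.125, the smallest possible). Within libraries, the genes whose counts varied most between B cells were AABR07060872.1, with a median variance of 2.83 times the mean, Rn60_1_2212.4 (2.59), Ighm (2.58) and Cd74 (2.16), against a median of 1.01 over 728 genes. Lyz2 of myeloid cells (2.098) and the chemokine Ccl5 of cytotoxic lymphocytes (1.96) followed.

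RNA of other cell types was found in the B cell barcodes of all 8 libraries. Among markers of macrophages, monocytes and natural killer (NK) cells, 20 genes reached 100 CPM in the other barcodes. In B cells they stood at 0.390 to 0.539 times that level, with a median of 0.443. Summed marker lists of plasmacytoid (0.412) and conventional dendritic cells (0.446) and of hepatocytes (0.496) lay inside this range. Those of neutrophils (0.281), T cells (0.302, with Cd3 genes at 0 by the rule), basophils and mast cells (0.309) and erythroid cells (0.341) lay below it. Endothelial and stellate cell (0.670) and platelet markers (1.05) lay above it. Ccl5 was seen in a median of 96.8% of B cells, 98.4% of T cells and 98.2% of the other barcodes at 1000 UMIs. In barcodes of 1 to 100 UMIs, which hold free RNA and had 7.51 UMIs on average, Ccl5 stood at 7909 CPM, against 4184 in B cells and 9246 in the other barcodes. No share over all genes tested is given below for such ratios or for the same sign of change in the other barcodes. Counts of called genes by either do not by themselves set those genes apart. Groups of genes that changed are set beside the range of 0.390 to 0.539 below. It is called the range of other-lineage markers there, but covers the 20 macrophage, monocyte and NK genes only. No UMI of Cd3d, Cd3e, Cd3g or Siglech is present, as the rule requires, yet Cd8a remained the most abundant of the 16 T cell markers, whose sum was 512 CPM in B cells against 3984 in T cells.

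The first question was whether cryopreservation kept the B cells. In fresh NC1, NC2, PC1 and PC2 they made up 1.97%, 2.33%, 3.61% and 1.29% of the passing barcodes, and after DMSO 2.39%, 2.97%, 3.92% and 1.33%. Each of the 4 animals had the higher share after DMSO, with a mean difference of 0.353 ± 0.254 points (SD, n = 4). Without doublet-like B cells, removed by a rule chosen after seeing the data, the difference was 0.02996 ± 0.137 points and NC1 had the lower share after DMSO. The share was also lower in NC1 without the limits on Cd3 and Siglech, and in PC2 with a minimum of 2 Cd79 UMIs. An exact two-sided permutation test of the 16 sign changes gave p = 0.125, the smallest it can give. In PC1, which had the most cells, the exact 95% binomial interval ran from 3.07% to 4.23% in fresh and from 3.33% to 4.58% in DMSO cells, so both intervals overlap. Intervals cover counting error only. PC1 had the highest and PC2 the lowest share in both conditions.

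The limits of 0 Cd3 and 0 Siglech UMIs bear on these shares. Both were relaxed together below, so the part of each was not tested. Without the limits on Cd3 and Siglech, 2206 barcodes had both Cd79 genes with at least 3 UMIs, and 1199 of these held a Cd3 UMI, 873 of them only 1 or 2. In fresh NC1, NC2, PC1 and PC2, 127, 105, 114 and 30 of these barcodes held a Siglech UMI. Cd3 UMIs averaged 3.16 and 3.52 per passing barcode in fresh NC1 and NC2, and 1.59 and 1.17 in PC1 and PC2. Of barcodes with at least 8 Cd79 UMIs, the limits kept 26.3% and 28.5% in fresh NC1 and NC2, but 44.8% and 52.3% in PC1 and PC2. A wider gate, chosen after seeing the data, which allowed up to 2 Cd3 and 2 Siglech UMIs and asked for at least 5 Cd79 UMIs, gave 1456 cells and fresh shares of 4.81%, 5.64%, 5.80% and 1.60% in NC1, NC2, PC1 and PC2. PC2 stayed lowest, and NC1 and NC2 moved close to PC1. In a further setting, barcodes with at least 1000 UMIs were thinned to 1000, and the minimum of 3 Cd79 UMIs was dropped. There NC2 stood above PC1, with 3.09% against 2.98% in fresh and 3.66% against 3.38% in DMSO cells. As depth and rule both changed in it, the part of each was not tested. Averaged over both libraries, the shares were 2.18% and 2.65% on CSAA and 3.77% and 1.31% on CDAA, which does not separate the diets (exact permutation test of 2 against 2 animals, p = 1, smallest possible p = 0.333). The difference of CDAA minus CSAA was 0.123 points with the rule and -1.34 points with the wider gate.

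Of the threshold itself, 80 of the selected barcodes had exactly 3 Cd79 UMIs, and a further 132 met all other limits with 2. No barcode sequence was shared between B cells of 2 libraries, while 10 to 29 barcodes were shared between any 2 libraries among all passing barcodes.

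**Figure D2:**
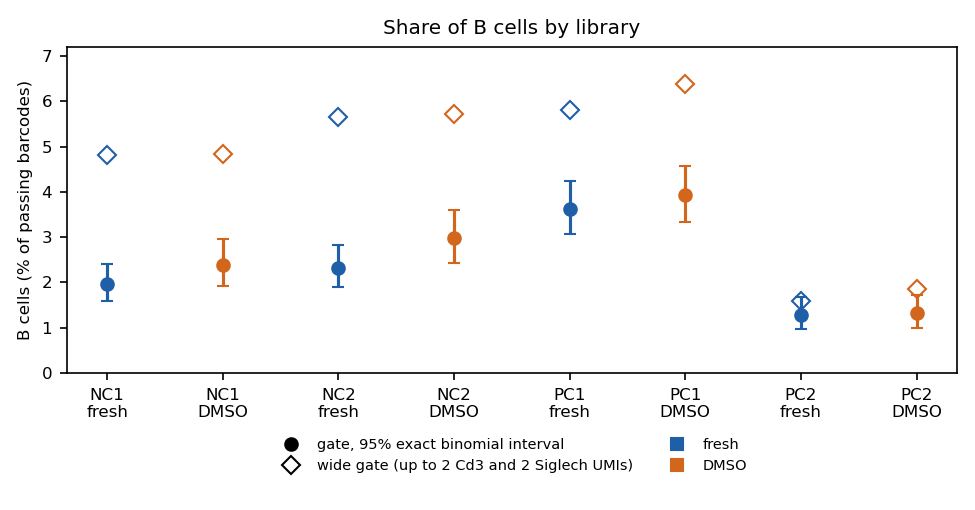
Share of B cells among passing barcodes, in percent, for each animal fresh (blue) and after DMSO (orange). Circles with 95% exact binomial intervals show the rule used here, and diamonds the wider gate, under which NC1 and NC2 rise to 4.81% to 5.71% and PC2 stays under 2%.

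B cells and the other barcodes both held fewer UMIs after cryopreservation. The median per fresh B cell was 2650, 2639, 3198 and 2913.5 UMIs for NC1, NC2, PC1 and PC2, and 2210, 2273.5, 2793 and 2580 UMIs after DMSO. It was lower in 4 of 4 animals, by a mean of 386 ± 46.4 UMIs (SD, n = 4, exact permutation test, p = 0.125). At a fixed depth of 1000 UMIs the cells held 517 genes when fresh and 507 after DMSO on average, and the difference of -10.3 ± 7.80 genes had the same sign in 4 of 4 animals. At 2000 UMIs, and with at least 5 Cd79 UMIs, PC2 had slightly more genes after DMSO and the other 3 animals fewer. The share of mitochondrially encoded UMIs was also lower in 4 of 4 animals, with means of 6.33% in fresh and 5.79% in DMSO B cells. All of these tests share the same smallest p of 0.125. In the other barcodes the median UMIs were 3725.5, 3920, 4512 and 4600 in fresh NC1, NC2, PC1 and PC2, and 3451.5, 3889, 4491 and 4259 after DMSO, lower in 4 of 4 animals as in B cells. Their mitochondrial share and the total UMIs of the library were lower after DMSO in 4 of 4 animals too. The study also lists fewer mean reads per cell for the DMSO than for the fresh library in 4 of 4 animals. The part of sequencing depth in the lower UMIs was not tested.

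The largest changes between fresh and cryopreserved B cells were those of the early response genes Fosb, Fos and Jun. UMIs were summed per library over the B cells, 150939 to 543706 in each, and tested in edgeR by quasi-likelihood with the animal as a block and Benjamini-Hochberg adjustment over all 2594 genes tested. At an adjusted p under 0.05 and at least a 2-fold change, 17 genes or 0.655% were called, 10 higher (0.386%) and 7 lower (0.270%) after DMSO. Without the fold limit, 59 genes (2.27%) passed, 34 higher (1.31%) and 25 lower (0.964%). Levels of single genes in the comparisons that follow are CPM after TMM scaling, which evens out library composition, whereas sums over lists and ratios to the other barcodes use CPM without it, and all changes are log2 values of DMSO over fresh, with the standard error and the adjusted p of edgeR.

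Fosb, a subunit of the AP-1 transcription factor, was nearly silent in fresh B cells, at 7.8, 7.5, 3.8 and 0 CPM in NC1, NC2, PC1 and PC2. After DMSO it stood at 231, 860, 349 and 232 in the same order, a fitted change of 6.27 (adjusted p = 1.7e-16). The 4 fresh libraries held only 6 UMIs of Fosb and the DMSO libraries 446, a ratio of 83.1 with an exact 95% counting interval of 37.9 to 228, which covers counting error only. Fos went from 46.6, 22.6, 17.3 and 22.5 to 595, 1012, 601 and 659 CPM, a change of 4.73 ± 0.20 (adjusted p = 1.6e-16). Jun went from 34.9, 11.3, 23.1 and 11.3 to 204, 376, 128 and 329 CPM, a change of 3.37 ± 0.28 (adjusted p = 8.9e-10). For none of these 3 genes did the fresh and the DMSO libraries overlap, and NC2 had the highest DMSO level of each. Junb rose by 1.66 ± 0.18, from a range of 113 to 272 to a range of 328 to 752 CPM, again with no overlap.

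Zfp36, whose protein destabilises cytokine messengers, stood at 132 to 175 CPM in fresh and 324 to 428 in DMSO B cells, a change of 1.26 ± 0.14 (edgeR, adjusted p = 4.3e-07). Dusp1, a phosphatase of MAP kinases, went from 22.5 to 46.6 up to 94.6 to 169 CPM (1.59 ± 0.25), and Ppp1r15a, which reverses the stress-induced block of translation, from 15.5 to 28.8 up to 69.4 to 104 (1.68 ± 0.30). Both hold the TGACGTCA letters shown above. Of the list of 36 early response genes, 15 could be tested, 8 passed the adjusted p, against 2.27% of all genes, and all 8 were higher after DMSO (Dusp1, Fos, Fosb, Gadd45b, Jun, Junb, Jund and Zfp36), and the median change of the 15 was 0.84, against -0.0017 over all genes tested. Egr1 was too low for the test and lay between 15.0 and 82.1 CPM.

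The remaining called genes were of mixed kind. The chemokine Ccl3 stood at 181 to 248 CPM in fresh and 622 to 1068 in DMSO B cells (1.85 ± 0.14, edgeR, adjusted p = 1.7e-10). Rgs1, which dampens chemokine receptor signals, changed by 1.72 ± 0.27, and Cd24, a surface protein of immature and transitional B cells, by 1.20 ± 0.22, although its fresh level varied from 16.9 in PC2 to 147 in NC2 and its call was lost without PC1 and with no animal block. The genes called lower were Rps10 (-1.26 ± 0.18), the DNA damage kinase Atm (-1.25 ± 0.30), the endocytic GTPase Dnm2 (-1.24 ± 0.32), the acetyltransferase subunit Naa15 (-1.22 ± 0.33), Chi3l1 (-1.05 ± 0.22), G0s2 (-1.05 ± 0.16) and S100a9 (-1.08 ± 0.26). S100a9 is a neutrophil and monocyte gene, and the 10 neutrophil markers summed to 131, 88.3, 195 and 265 CPM in the B cells of fresh NC1, NC2, PC1 and PC2, and to 68.3, 50.4, 110 and 186 after DMSO. Before DMSO these 7 genes stood at 0.278 to 1.74 times the other barcodes, with a median of 1.16 and 1 of them, S100a9, at or below the range of other-lineage markers, and 5 of the 7 had a negative change in the other barcodes. The calls of the lower genes were less stable than those of Fosb, Fos and Jun. By the adjusted p alone, Naa15 lost its call in 5 of 8 alternatives, Dnm2 in 4 of 7, Chi3l1 in 5 of 11 and Atm in 3 of 8. Rps10 and G0s2 were steadier, and each lost its call in 1 of 11. Without PC1, 2 genes passed the adjusted p as lower and none of them reached 2-fold. Ribosomal protein genes such as Rps10 have near-identical copies among which counts may be split, so their values are uncertain.

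**Figure D3:**
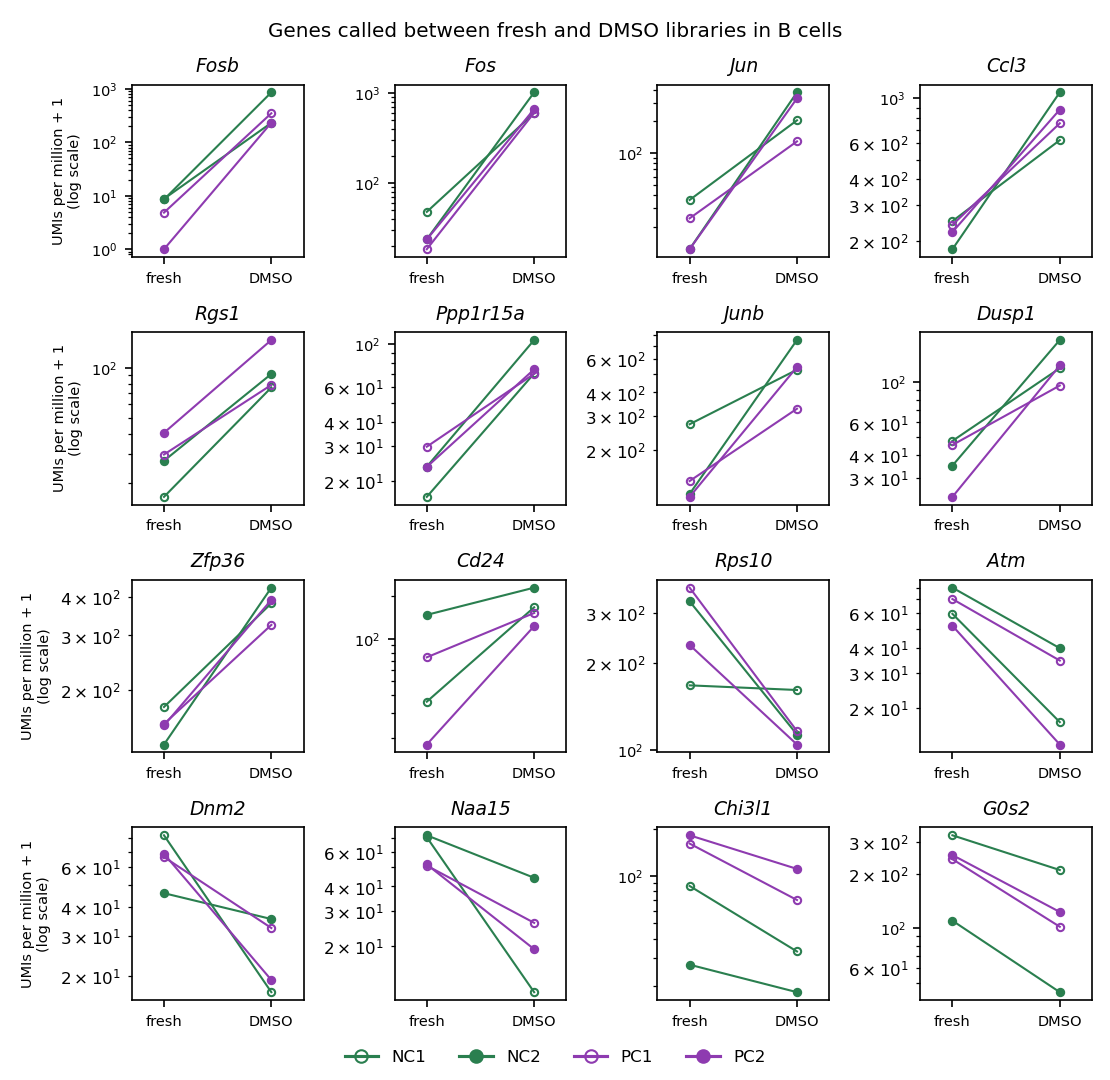
Level of the 16 genes called between fresh and DMSO libraries with the same direction in 4 of 4 animals, in CPM plus 1 on a log scale, with a line per animal. Fosb, Fos and Jun show the steepest lines, and the fresh levels of Cd24 run from 16.9 to 147 CPM between animals.

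The 41 genes over 2 times the other barcodes in every library are described next. They were chosen on fresh and DMSO libraries alike, so a gene that fell below 2 times after DMSO could not be among them, and their count is no measure of stability. Of the 39 that the rule did not use, 1 passed the adjusted p of edgeR, AABR07060872.1 (0.26 ± 0.06), against 2.27% of all genes, and none reached 2-fold, against 0.655%. The 39 changes ran from -0.51 for Fli1 to 0.61 for Cd83, with a median of 0.04. Ighm passed the test, with a change of 0.33 ± 0.07 and higher levels in 4 of 4 animals. It changed by 0.55 ± 0.21 in the other barcodes (adjusted p = 0.13) and by 0.57 ± 0.15 in T cells (adjusted p = 0.044, edgeR). In the other barcodes NC1 had the largest rise of Ighm, from 856 to 2686 CPM. NC2, PC1 and PC2 went from 1056 to 1188, 626 to 780 and 281 to 303 CPM there. Fcer2 stood at -0.07 ± 0.15 (adjusted p = 0.93) and Tnfrsf13c at 0.41 ± 0.13 (adjusted p = 0.11). Of the 14 B cell markers tested that the rule did not use, 1 passed, Ighm, and their median change was 0.19. In the MHC class II list 1 of 10 tested genes passed, Ifi30, a thiol reductase of antigen processing (0.45 ± 0.09). No gene passed in the lists of B lineage transcription factors (16 tested), homing receptors (13), interferon-stimulated genes (13) or survival receptors (9).

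The same question was put to the difference between B cells and the other barcodes. In the interaction of cell class and preservation, with the library as a block, edgeR called 0 of 10463 genes, with 431 at an unadjusted p under 0.05, and DESeq2 called 0, with 136. In the other barcodes Fosb changed by 6.03, Fos by 4.71 and Jun by 3.80, and in T cells by 6.33, 4.74 and 4.08. The values for B cells lay next to these. For Dusp1 they were 1.59 in B cells, 2.56 in the other barcodes and 2.84 in T cells, and for Dnm2 -1.24, 0.08 and -0.19, but neither difference passed the adjustment. For the 10 genes called higher, the level in DMSO B cells was 0.285 to 1.24 times that in the other DMSO barcodes, with a median of 0.845. Of these 10, 8 lay above the range of 0.390 to 0.539 of other-lineage markers, and Rgs1 (0.464) and Dusp1 (0.285) lay within or below it. All 10 also had a positive change in the other barcodes, and the part of free RNA in their change was not tested.

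The second question was the effect of diet. In fresh libraries edgeR called 49 of 2865 genes or 1.71% between CDAA and CSAA, 38 higher (1.33%) and 11 lower (0.384%) in CDAA. In DMSO libraries of the same animals 23 of 2384 genes or 0.965% were called, 18 higher (0.755%) and 5 lower (0.210%). Without the fold limit, 57 genes (1.99%) passed in fresh libraries, 44 higher (1.54%) and 13 lower (0.454%), and 25 (1.05%) in DMSO libraries, 20 of them higher (0.839%). As both comparisons rest on the same 4 animals, they are given side by side and are not independent. The DESeq2 test called 8 genes in fresh and 4 in DMSO libraries, all higher in CDAA and none lower, with 99 and 63 genes at an unadjusted p under 0.05 in either direction. In fresh libraries 14 genes were called with at least 5 Cd79 UMIs, and 3, all higher in CDAA (Apoe, Cd63 and Fabp4), without doublet-like B cells, a setting chosen after seeing the data in which 1845 genes could be tested. Changes are log2 values of CDAA over CSAA.

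The largest changes among the named genes were higher levels in CDAA, of Gpnmb, Fabp4, Spp1, RGD1562667, Lpl, Apoe and Cd63 in that order. Gpnmb, a glycoprotein of phagocytes, gave 1 UMI in the B cells of both fresh CSAA libraries together and 100 in CDAA, a ratio of 71.8 with an exact 95% counting interval of 12.6 to 2862. Fabp4, which carries fatty acids in adipocytes and macrophages, gave 2 and 136 UMIs, a ratio of 48.8 (13.2 to 407). The matrix protein Spp1 stood at 0 and 3.8 CPM in NC1 and NC2 and at 59.6 and 158 in PC1 and PC2. Its call was lost in 2 of 10 alternatives, with DESeq2 and without PC2. RGD1562667 gave 2 and 83 UMIs, a ratio of 29.8 (7.99 to 250), and lost its call in 1 of 9 alternatives. Lpl gave 1 and 40 UMIs, a ratio of 28.7 (4.86 to 1162), and lost its call in 1 of 7. Gpnmb lost its call in 1 of 11 alternatives, and Fabp4, Apoe and Cd63 in 0 of 11. Apolipoprotein Apoe stood at 11.6 and 7.5 on CSAA and 211 and 225 on CDAA (edgeR, adjusted p = 8.4e-07), from 5 and 150 UMIs, a ratio of 21.5 (9.02 to 67.3). The lysosomal tetraspanin Cd63 stood at 11.6 and 11.3 against 213 and 146 CPM (edgeR, adjusted p = 2.3e-06), from 6 and 137 UMIs, a ratio of 16.4 (7.34 to 45.4). These intervals cover counting error only. In DMSO libraries Apoe stood at 10.7 and 0 CPM on CSAA and 170 and 104 on CDAA, from 2 and 98 UMIs, a ratio of 31.4 (8.48 to 263).

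These genes were lower in B cells than in the barcodes around them. For the 38 genes called higher in CDAA, the level in the B cells of the fresh PC libraries was 0.379 to 2.171 times that of the other barcodes, with a median of 0.542. Of the 38, 18 were at or under the upper end of the range of other-lineage markers and 37 were under 1. All 38 also had a positive change in the other barcodes, where Apoe changed by 4.70 and Cd63 by 3.09. The shares over all genes tested are not given beside these counts. Of the 16 macrophage markers, 7 could be tested in B cells, and 3 of these passed the adjusted p as higher in CDAA (C1qa, C1qc and Csf1r), against 1.54% of all genes, while 4 did not pass. The 16 members summed to 4123 and 2407 CPM in the B cells of fresh NC1 and NC2 and to 4922 and 6316 in PC1 and PC2, with Lyz2 the most abundant and no member at 0. How much of the change in these genes came from free RNA or from droplets with another cell was not tested.

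The 1 gene called higher that was also higher in B cells than around them was the MHC class II gene RT1-Bb, with 229 and 448 CPM in NC1 and NC2 and 452 and 1790 in PC1 and PC2. NC2 and PC1 were nearly equal, and PC2 stood apart. After DMSO the values were 332 and 143 against 135 and 2123, so that the diets overlapped and only PC2 was high.

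**Figure D4:**
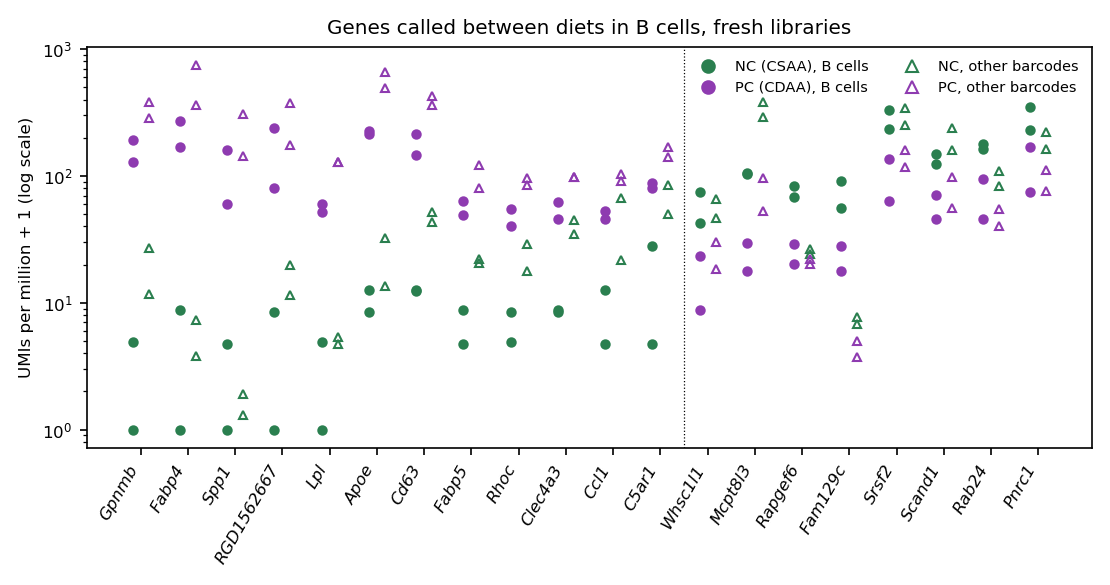
Level of 20 genes called between diets in fresh libraries, in CPM plus 1 on a log scale, for CSAA (green) and CDAA (purple) animals. Filled circles show B cells and open triangles the other barcodes, and left of the dotted line, where genes were higher in CDAA, the purple circles lie under the purple triangles.

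Genes lower in CDAA were fewer and less alike. Fam129c, a gene of B cells, had the highest ratio among them, 11.5 times the other barcodes in fresh NC libraries. It stood at 54.3 and 90.3 CPM in NC1 and NC2 and at 26.9 and 16.9 in PC1 and PC2, a change of -1.66 ± 0.44 (edgeR, adjusted p = 0.048), and the diets did not overlap. Its call was lost in 6 of 9 alternatives, with an adjusted p of up to 0.70 without NC2. After DMSO it stood at 96.5 and 86.5 against 46.2 and 91.5, with a change of -0.62 (adjusted p = 0.67). The splicing factor Srsf2 fell from 330 and 233 to 135 and 61.9 CPM (-1.45 ± 0.28, adjusted p = 0.0060) and was also called in DMSO libraries, with -1.47. In fresh libraries its call was lost with DESeq2 (adjusted p = 0.11) and without doublet-like B cells (adjusted p = 0.11, edgeR). Scand1 (-1.22 ± 0.30) and the nuclear receptor coactivator Pnrc1 (-1.19 ± 0.28) were likewise called in both, but Scand1 lost its call in 7 of 11 and Pnrc1 in 5 of 11 alternatives in fresh libraries. Mcpt8l3, a protease gene with a ratio of 0.308, fell by 2.09 and stood at 105 and 102 against 28.8 and 16.9 CPM, and its call was lost with DESeq2 (adjusted p = 0.23) and without doublet-like B cells (adjusted p = 0.053, edgeR). The 11 genes called lower stood at 0.308 to 11.5 times the other barcodes in fresh NC libraries, with a median of 1.04 and 1 at or below the range of other-lineage markers. All 11 had a negative change in the other barcodes too.

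Of the 39 genes over 2 times the other barcodes in every library that the rule did not use, 1 passed the test of diet in fresh libraries, AABR07060872.1, with -0.55, against 1.99% of all genes, and none in DMSO libraries, against 1.05%. In fresh libraries 31 of the 39 had a negative change, with a median of -0.22 against -0.01 over all genes, and in DMSO libraries of the same animals 24 of 39, with a median of -0.06. Of the 14 B cell markers tested that the rule did not use none passed, with a median of -0.23. Ighm stood at -0.41 (adjusted p = 0.24), Fcer2 at -0.16 (adjusted p = 0.89) and Tnfrsf13c at -0.14 (adjusted p = 0.91). Among interferon-stimulated genes, 1 of 15 tested was called, Ifi27, lower in CDAA (-1.81), with a list median of -0.38. Ifi27 stood at 753 and 150 CPM in NC1 and NC2 and at 156 and 101 in PC1 and PC2, so that the diets overlapped and only NC1 was high. In the cholesterol and lipid list only Apoe of 7 tested passed. No gene passed in the list of B cell receptor signalling (19 tested) or of B lineage transcription factors (17 tested, median -0.39). Higher in CDAA were Itgb2 of 13 homing receptors tested, Bcl2a1 of 9 survival receptors and Lilrb4 of 6 inhibitory co-receptors and phosphatases. Each was the 1 member of its list that passed, and Lilrb4 also passed in DMSO libraries.

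Whether diet altered the response to cryopreservation was tested as an interaction. EdgeR called 0 of 3174 genes, with 138 at an unadjusted p under 0.05, and DESeq2 called 0, with 4.

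**Figure D5:**
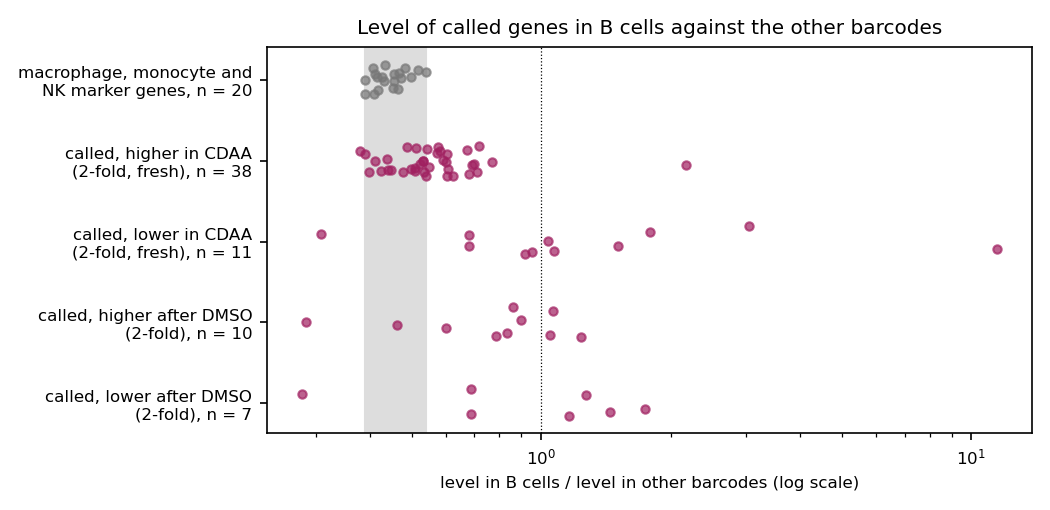
Level in B cells divided by the level in the other barcodes, on a log scale, 1 point per gene. The grey band spans 0.390 to 0.539, the range of 20 macrophage, monocyte and NK marker genes, and the ratio of called genes is taken in the group where they were higher, with 37 of 38 genes higher in CDAA to the left of 1.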

How the data were processed

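Per the labels and the methods of the study, the authors made libraries with Chromium 3′ v2 chemistry and counted UMIs with Cell Ranger 2.1.1 on Rnor6.0 with Ensembl release 86. The deposited counts are not normalized and cover 737280 barcodes per library. B cells were selected by the rule above, and their UMIs were summed per library. Comparisons used edgeR 4.0.16 in R 4.3.3 (TMM, filterByExpr, quasi-likelihood test, animal as a block where fresh and DMSO were compared), DESeq2 1.42.0 as an alternative, and exact permutation tests in Python 3.11.15 for single values. Fresh and DMSO libraries of 1 animal were paired by the labels, and their deviations from the condition means correlated with r = 0.261 to 0.399 over 2594 genes. Libraries of different animals on the same diet gave r = 0.124 to 0.271, which overlaps that range, and those across diets -0.366 to -0.205. Shares of cells with a UMI were taken after thinning to 1000 UMIs. Samples are single animals, 2 per diet. On simulated data with 200 of 2431 genes changed 4-fold, the preservation fit found 175 with 1 false call. With 200 of 2633 the diet fit found 170 with 5, but with 200 of 10292 the comparison of B cells with other barcodes found only 81 with 2. The simulated counts had the same dispersion for all genes, no other difference between animals and no free RNA. These rates therefore check the fits and do not measure power or false calls in the real data. Named genes were at most 12 per direction with the largest change among called genes, with the same direction in 4 of 4 animals or with diets that did not overlap. Members and lists were chosen with earlier results of these data known. No doublets were removed. Values of some genes are not reported here.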

Additional observations from a re-analysis of the deposited data

How the results depend on the processing

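Genes called between fresh and DMSO B cells numbered 17, and 10 with the DESeq2 test, 27 with no filter on low counts, 59 with no fold minimum, and 10 with no replicate block, where animals were not paired. They numbered 10 to 28 when 1 animal was left out. Of the 28 without NC1, 14 were among the 17, and of the 10 without PC1, 9 were. With the wide gate 18 were called, 9 of them among the 17. Fosb, Fos, Jun, Junb, Dusp1, Zfp36 and Ccl3 passed under each alternative in which they were tested. Diet calls in fresh libraries numbered 49, and 8 with DESeq2 and 14 with at least 5 Cd79 UMIs, all of them among the 49. With the wide gate 41 were called, of which only 25 were among the 49. In DMSO libraries they numbered 23, and 4 with DESeq2, 43 with no filter, and 30 to 42 without 1 animal (41 without NC1, 42 without NC2 and 42 without PC2). Calls of the interaction of diet and preservation numbered 0, 3 with no filter and up to 5 without 1 animal (NC2). Those of B cells against other barcodes numbered 0, 1 against T cells (Ccl1), up to 1 without 1 animal (St3gal5, without PC1) and 1 with the wide gate (Ccl2). Ccl1, St3gal5 and Ccl2 are named here after their values were seen.

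The planned removal of doublets, by 2 or more UMIs of another lineage, took all 786 B cells and could not be used. A milder one, added after seeing the data, removed B cells whose share of NK or macrophage marker UMIs reached the median of the other barcodes. B cells with over 3 times the median UMIs were removed too. It thus chose cells by RNA of other lineages and left fewer cells, and the part of either in the lost calls was not tested. This removal kept 448 cells and gave 11 calls for preservation, 3 (Apoe, Cd63 and Fabp4), 8 and 2 calls for diet in fresh libraries, in DMSO libraries and for the interaction, and a share difference of 0.02996 points between DMSO and fresh. Without the limits on Cd3 and Siglech, also added after seeing the data, it was 0.0557 points. Without 1 animal that share difference ran from 0.254 to 0.458. The diet difference in share was 0.123 points, and -0.969 after thinning, where the minimum of 3 Cd79 UMIs was also dropped. It was -1.34 with the wide gate, -2.48 without the limits on Cd3 and Siglech, and -1.11 to 1.35 without 1 animal (-0.111 without NC1 and -1.11 without PC1). The difference in median UMIs was -317 with the wide gate and -403.5 to -368 without 1 animal. That in genes was -20.5 at 2000 UMIs and -13.3 to -7.27 without 1 animal, and that in mitochondrial share -0.651 to -0.371 points. No named gene changed sign. Fewer than 160 B cells per library limit all of these values.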
